A study of Mus musculus with 9 samples.

Results

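The genes described here encode the machinery that carries newly made proteins between the endoplasmic reticulum (ER) and the Golgi apparatus. They were chosen by name: 45 genes for the COPI and COPII coats, the ARF GTPases and their regulators, the p24 proteins, cargo receptors, and ER-Golgi SNAREs and tethers. Earlier results of these data were known when they were chosen. Of the 45, 44 were among the 9697 genes tested, and all 44 had a log2 value above 5 in all 9 arrays, the lowest being 5.69. The remaining gene, Tmed2, is treated with the p24 proteins below, because its bright probe sets also name a second gene.

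Secretory proteins leave the ER in vesicles formed by COPII, a coat that the GTPase Sar1 assembles from Sec23, Sec24, Sec13 and Sec31 at exit sites marked by Sec16. COPI, a coat recruited by ARF GTPases, returns escaped ER proteins and cargo receptors from the Golgi and moves material within it. p24 proteins and lectin-like receptors select cargo, tethers capture incoming vesicles, and SNAREs fuse them with the target membrane. In muscle fibres the same route supplies membrane proteins, among them class I molecules of the major histocompatibility complex (MHC), which fold in the ER and travel to the surface through the Golgi.

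RNA came from quadriceps femoris of 9 female mice on the C57Bl/6 background, labelled HT transgenic in all groups, with 1 Affymetrix array per sample. In the published HT line, a self MHC class I transgene is switched on by a tetracycline-controlled activator under the muscle creatine kinase promoter, so that expression is directed to muscle and doxycycline represses it. The control group (n = 3) received doxycycline throughout and was killed at 35 days of age. In the early group (n = 3) doxycycline was stopped at 21 days, and the mice were killed at 35 days, after 2 weeks of transgene expression. In the late group (n = 3) doxycycline was stopped at 35 days and the labels give 50 days at sacrifice. The protocol calls the controls single transgenic littermates, whereas the strain label is the same in every group; a missing second transgene, doxycycline and age therefore cannot be told apart from induction where they differ. The early and control mice were of the same age, and the late mice were older than the controls that they were compared with.

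Values are deposited log2 values, and fold changes are 2 raised to the log2 difference. The transgene check was H2-K1, an endogenous class I gene whose probe set can also read a transgene of that family: the control arrays averaged 10.52 ± 0.34 (SD, n = 3), the early arrays 14.66 ± 0.03 and the late arrays 13.87 ± 0.66. Both induced groups lay above every control array for H2-K1. Array medians were 3.41 to 3.45, and pairwise correlations between arrays were 0.967 to 0.997. Early replicate 3 stood apart: without it the number of genes called in early against control went from 115 to 1756, and members for which it lay far from the other early arrays are named below. All 10 skeletal fibre markers were tested and none was called in any comparison; their summed level, on the log2 scale, was 18.64 to 18.75 in control, 18.61 to 18.66 in early and 18.66 to 18.76 in late arrays. Slow fibre markers varied widely within groups: their summed level was 11.18 to 13.25 in control, 11.52 to 15.01 in early and 12.15 to 15.90 in late arrays, with none of 7 called.

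The first comparison, early against control, asked what transgene expression from 21 days of age did to these genes. The ER-Golgi genes were higher in early muscle: 13 of 44 rose, none fell, and 42 of 44 differences were positive, with a median difference of 0.68 (1.61-fold) against -0.03 over all genes tested. Calls were made at an adjusted p under 0.05 by limma's moderated test with Benjamini-Hochberg adjustment over all 9697 genes, which gives every adjusted p below; over all genes 0.928% were called higher. For 33 of the 44 all 3 early arrays lay above all 3 controls, which held for 9.63% of all genes, and 34 had an unadjusted p under 0.05 in the upward direction, against 8.64% of all genes. Of the 31 members not called, 2 had negative differences, Arfgap2 (-0.20) and Tmed5 (-0.22). The shift was present in each early array: the members' median distance from the control mean was 0.46, 0.76 and 0.70 in early replicates 1, 2 and 3, and 0.11, -0.09 and -0.03 in the controls. In whole muscle, more cells of a type and more RNA per cell cannot be told apart. The calls depended on single arrays: between 1 and 21 members were called when 1 array was left out, and Arfgap3 was the 1 member left without control replicate 2, control replicate 3 or early replicate 2.

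**Figure D1:**
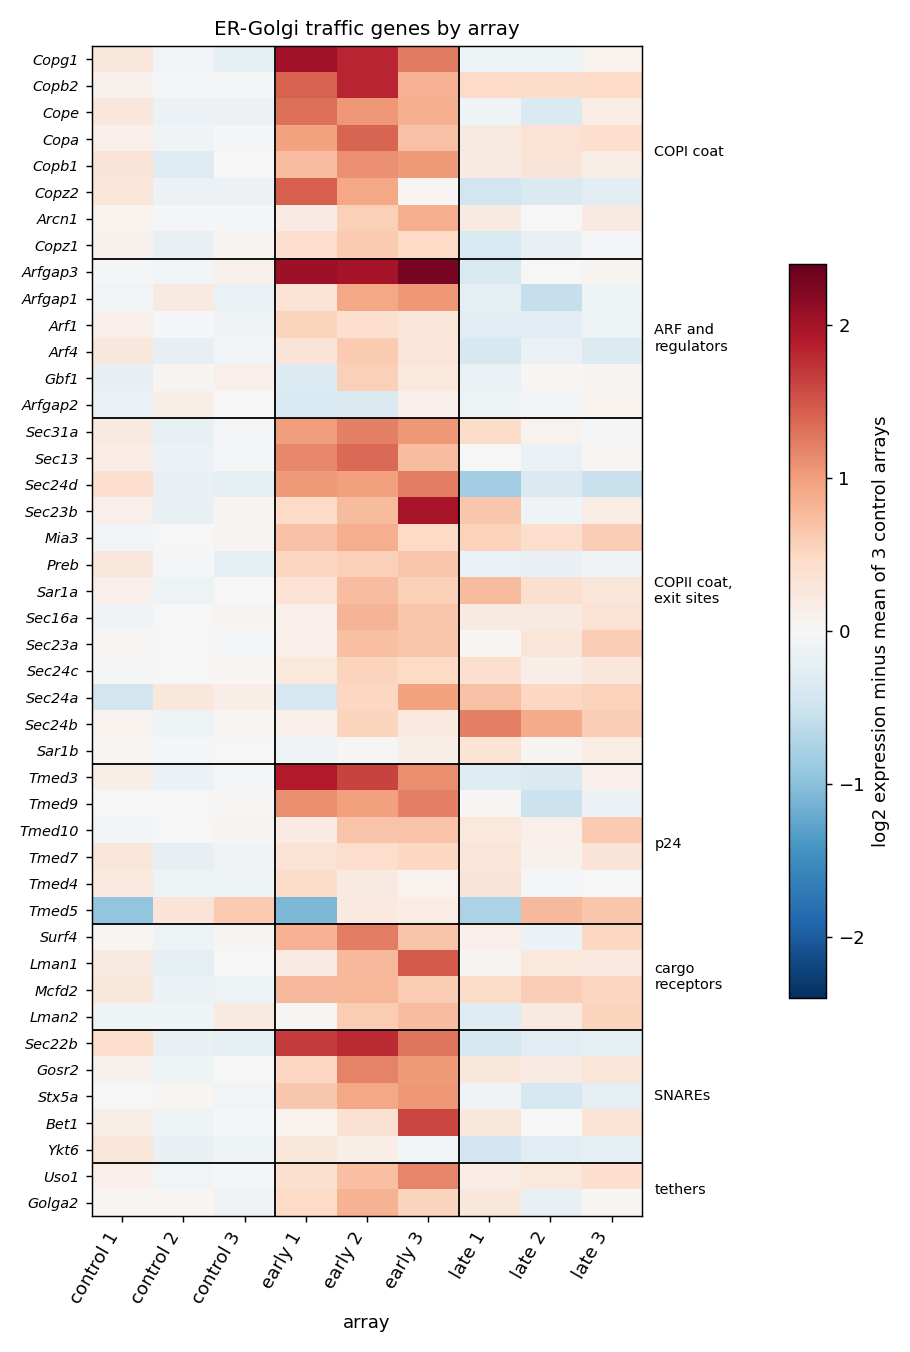
Log2 expression of the 44 ER-Golgi traffic genes in each of the 9 arrays (columns), as the distance from the mean of the 3 control arrays (colour, red higher and blue lower), with genes in rows grouped by role. Red runs through most rows of the early columns, from 2 negative means (Arfgap2 and Tmed5) to Arfgap3 at 2.11, while the late columns are mixed, with Sec24b highest at 0.90 and Sec24d lowest at -0.57.

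The second comparison, late against control, gave 0 called members by limma, with 0.0928% of all genes called higher and 0.113% called lower. Differences were smaller and mixed in sign: 26 of 44 were positive, 18 were negative, and the median was 0.16 (1.11-fold), against 0.01 over all genes. At an unadjusted p under 0.05, 4 members were higher (Sec24b, Mia3, Mcfd2 and Sar1a) and 1 was lower (Sec24d), where 8.82% and 8.44% of all genes passed that mark in the respective directions. Late arrays lay above all controls for 14 members, or 31.8%, beside 16% of all genes, and below them for 6, beside 14.9% of all genes.

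Early and late muscle were then compared directly, 2 induced groups that differ in age at induction and in age at sacrifice. H2-K1 also read 0.79 higher in early than in late muscle, with no overlap of arrays but without a call (adjusted p = 0.112). The part of that difference in this comparison was not tested. Here 21 of 44 members were higher in early muscle and none was lower, with a median difference of 0.63 (1.55-fold); 5.31% of all genes were called higher and 6.23% lower. Arrays did not overlap for 25 members in the upward direction and for 1, Sec24b, in the downward direction, against 13.7% and 18.3% of all genes. This comparison reuses the early arrays of the first, so the lists of calls are not independent of each other. Without single arrays, 7 to 21 members were called, the fewest without late replicate 2.

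**Figure D2:**
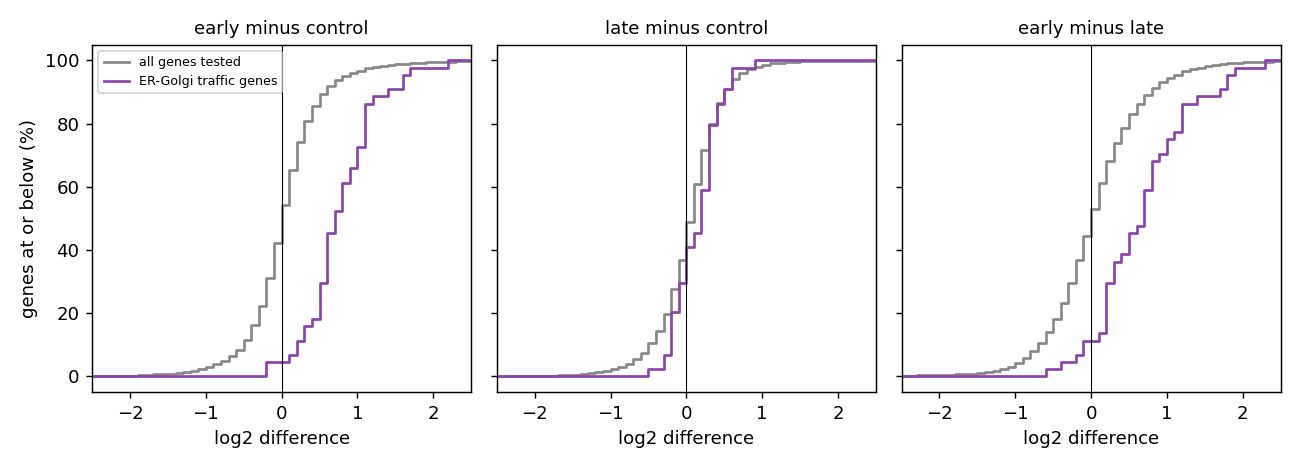
Cumulative share of genes (vertical axis, percent) at or below a given log2 difference (horizontal axis) for the 44 ER-Golgi traffic genes (purple) and all 9697 genes tested (grey), in each of the 3 comparisons. The purple curve lies to the right of the grey one in early minus control (medians 0.68 and -0.03) and in early minus late (medians 0.63 and -0.03), and close to it in late minus control (medians 0.16 and 0.01).

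Promoter sequences are shown because ER stress transcription factors bind short elements near the start of many genes of this machinery. The RefSeq table (GRCm38.p6) holds 300 bases per promoter, 250 before and 50 after the start, for 41 of the 45 members and 27025 genes in all; Arcn1, Lman1, Tmed2 and Tmed7 had no entry. Letters were searched on both strands of 32851 promoters, and a gene was counted where any of its promoters held the motif. The UPR element TGACGTGG (CCACGTCA on the other strand) was found in 7 of 41 members (17.1%) and in 0.714% of all genes. Its letters include CCACG on the opposite strand and ACGT in the middle, so the shorter motifs are partly the same matches: CCACG was in 78.0% of members and 35.5% of all genes, and ACGT in 75.6% and 33.8%. The full ER stress element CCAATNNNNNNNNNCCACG was in 0 of 41 members and 0.137% of all genes. Taking the promoter richest in G and C for each gene, the median share of G and C was 63.0% in members and 53.3% over all genes. The part of base composition in the motif shares was not tested.

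The 7 members with a UPR element were Arf1, Copb1, Copb2, Gbf1, Sec23a, Sec24d and Stx5a. Of these, 4 were among the 13 members called in early against control, and 3 among the 28 with a promoter that were not called. Arfgap3, with the greatest early difference, held none of the 4 motifs in its window. Matches are given from a single promoter of each gene, with 10 bases on both sides where the window allows, 5′ to 3′ on the gene's strand, with the element in capitals.
Arf1 (chr11:59228229-59228256, minus strand): cggcaggcgcTGACGTGGctgccgtcag
Copb1 (chr7:114254691-114254718, minus strand): ccgcccccttCCACGTCAgccaaggact
Copb2 (chr9:98563714-98563741, plus strand): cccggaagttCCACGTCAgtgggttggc
Gbf1 (chr19:46152536-46152563, plus strand): aggctagttaCCACGTCAgtgagctgac
Sec23a (chr12:59011994-59012021, minus strand): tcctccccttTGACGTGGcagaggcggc
Sec24d (chr3:123267460-123267487, plus strand): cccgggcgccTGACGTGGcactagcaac
Stx5a (chr19:8741423-8741450, plus strand): ggcgcagcagCCACGTCAccgagttagg
Stx5a, second match (chr19:8741453-8741473, plus strand): tacgtctaggTGACGTGGcgg

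Among these, the element lay from -28 to -21 relative to the start in Copb1, -26 to -19 in Sec24d and -12 to -5 in Gbf1, reached across the start in Copb2, and lay after the start in Arf1, Sec23a and Stx5a, the last with a match on each strand. Copb1, Copb2 and Gbf1 held it on the strand opposite to the gene, and Arf1, Sec23a and Sec24d on the same strand. The 250 bases before the start are given for the called members whose match lies wholly upstream, one from each coat, with the element again in capitals.
Copb1 (GRCm38.p6 chr7:114254681-114254930, minus strand): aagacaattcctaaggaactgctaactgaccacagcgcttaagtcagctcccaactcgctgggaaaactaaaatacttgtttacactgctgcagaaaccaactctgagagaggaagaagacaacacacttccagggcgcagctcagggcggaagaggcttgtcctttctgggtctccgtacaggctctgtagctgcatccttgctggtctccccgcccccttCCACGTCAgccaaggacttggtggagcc
Sec24d (GRCm38.p6 chr3:123267246-123267495, plus strand): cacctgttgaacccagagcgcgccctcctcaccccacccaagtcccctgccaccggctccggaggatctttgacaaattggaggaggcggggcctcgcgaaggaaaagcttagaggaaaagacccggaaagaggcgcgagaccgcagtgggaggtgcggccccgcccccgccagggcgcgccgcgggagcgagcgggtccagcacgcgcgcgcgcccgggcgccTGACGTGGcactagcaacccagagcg
A match of letters is a description of the sequence and does not show that a factor was bound there.

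The COPI coat is a complex of 7 kinds of subunit, read here by 8 genes. All 8 had positive differences in early against control (median 0.99, 1.99-fold), and 5 rose: Copa, Copb1, Copb2, Copg1 and Cope. Copg1, the gamma subunit, which binds ARF and cargo tails, read 9.62, 9.29 and 9.14 in control replicates 1 to 3, 11.36, 11.17 and 10.59 in early, and 9.23, 9.24 and 9.43 in late arrays. Every early array was above every control and late array, while control and late arrays overlapped. The early minus control difference was 1.69 ± 0.22 (SE; 3.23-fold, adjusted p = 0.0117), late minus control was -0.05 ± 0.22, and early minus late was 1.74 ± 0.22 (adjusted p = 0.00578). A second passing Copg1 probe set gave 0.45 in early against control, with an adjusted p of 0.338 over probe sets.

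Copb2, the beta-prime subunit, which reads retrieval signals on cargo, was at 10.04, 9.89 and 9.89 in controls, 11.36, 11.77 and 10.78 in early and 10.41, 10.38 and 10.39 in late arrays. With this probe set the 3 groups formed separate steps with no overlap. Early exceeded control by 1.36 ± 0.22 (2.57-fold, adjusted p = 0.0288) and late by 0.91 (adjusted p = 0.0381), while late exceeded control by 0.45 without a call (adjusted p = 0.331). A second Copb2 probe set gave 1.34 in early minus control but 0.06 in late minus control, with late and control arrays overlapping. Copa, the alpha subunit, which pairs with Copb2 in the outer layer of the coat, read 11.21, 11.002 and 11.05, then 12.05, 12.49 and 11.79, then 11.31, 11.43 and 11.49. With the probe set used, its groups were likewise in 3 separate steps: early minus control was 1.03 ± 0.18 (2.04-fold, adjusted p = 0.0394), late minus control 0.32 (adjusted p = 0.395) and early minus late 0.70 (adjusted p = 0.0444, and 0.0563 with the replicate number as a block). A second, dimmer Copa probe set gave 1.22 in early minus control and -1.05 in late minus control, so its late arrays were not the middle step.

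Cope, the epsilon subunit of the outer layer, read 11.78, 11.36 and 11.36 in controls, 12.83, 12.53 and 12.35 in early and 11.39, 11.15 and 11.68 in late arrays. Early arrays were all higher than the rest, by 1.07 ± 0.20 against control (2.10-fold, adjusted p = 0.0446) and 1.16 against late (adjusted p = 0.0161). Copb1, the beta subunit of the inner layer and the COPI gene whose upstream bases are printed above, had control values of 9.17, 8.55 and 8.86, early values of 9.60, 9.96 and 9.89, and late values of 9.07, 9.17 and 9.01. Among controls, replicate 1 was the closest to the early arrays for both genes, without reaching them. The Copb1 difference was 0.96 ± 0.18 against control (1.94-fold, adjusted p = 0.0472) and 0.73 against late (adjusted p = 0.0389, and 0.0581 with the block).

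The zeta subunit has a pair of genes. Copz1 read 10.08, 9.79 and 10.04 in controls, 10.37, 10.61 and 10.45 in early and 9.61, 9.80 and 9.95 in late arrays; the early difference was 0.50 ± 0.15 against control (adjusted p = 0.153) and 0.69 against late (adjusted p = 0.0283). Copz2 varied more among early arrays, at 11.29, 10.78 and 9.90 beside controls of 10.15, 9.71 and 9.71 and late arrays of 9.39, 9.50 and 9.58. Early replicate 3 fell inside the control range for Copz2, and the difference of 0.80 ± 0.31 from control was not called (adjusted p = 0.229), whereas that of 1.16 from late was (adjusted p = 0.0465). The delta subunit, Arcn1, was 0.54 higher in early than in control muscle without a call (adjusted p = 0.182), and its 3 early values, 11.26, 11.64 and 11.95, all exceeded the control maximum of 11.15. A second, dimmer Arcn1 probe set gave 1.15 in early minus control with no overlap, without a call (adjusted p = 0.050003 over probe sets). The remaining passing one gave 0.41, with overlapping arrays (adjusted p = 0.466 over probe sets). In late against control, COPI differences ran from -0.36 (Copz2) to 0.45 (Copb2), 4 positive and 4 negative.

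ARF GTPases recruit COPI when loaded with GTP, Gbf1 loads them, and the ARFGAP proteins trigger GTP hydrolysis. Arfgap3 had the greatest early difference of all 44 members: 6.01, 5.99 and 6.18 in controls, 8.12, 8.06 and 8.33 in early, and 5.69, 6.06 and 6.12 in late arrays. The early arrays lay close together and far above all others, and control and late arrays overlapped. Early minus control was 2.11 ± 0.16 (4.32-fold, adjusted p = 0.00115), early minus late 2.21 ± 0.16 (4.63-fold, adjusted p = 0.00116) and late minus control -0.10. It was called in all 19 alternative settings in both comparisons with early muscle.

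Arfgap1, whose product senses membrane curvature, read 8.53, 8.83 and 8.44 in controls, 8.94, 9.52 and 9.64 in early and 8.37, 8.06 and 8.51 in late arrays. All early values of Arfgap1 exceeded the others, with a difference of 0.77 ± 0.22 from control (adjusted p = 0.146) and 1.06 from late (adjusted p = 0.0251). Arfgap2 was -0.20 ± 0.17 in early against control, with overlapping arrays. The difference in response between these 3 genes was not tested.

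Arf1, the main ARF of the Golgi, read 12.55, 12.38 and 12.35 in controls, 12.96, 12.84 and 12.72 in early and 12.16, 12.16 and 12.30 in late arrays. The late arrays were the lowest and the early arrays the highest, with no overlap between any pair of groups. Arf1 was 0.41 ± 0.13 above control in early muscle (adjusted p = 0.165), -0.22 in late muscle (adjusted p = 0.409), and 0.63 higher in early than in late (1.55-fold, adjusted p = 0.0251). Arf4, an ARF that acts at the early Golgi, read 10.86, 10.38 and 10.52, then 10.89, 11.22 and 10.87, then 10.20, 10.43 and 10.26. Its early arrays cleared control replicate 1 by a narrow margin; early minus control was 0.41 (adjusted p = 0.249) and early minus late 0.70 (adjusted p = 0.0367, and 0.0517 with the block). Gbf1, the exchange factor, differed by 0.16 in early and -0.03 in late muscle, and none of its arrays separated the groups.

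**Figure D3:**
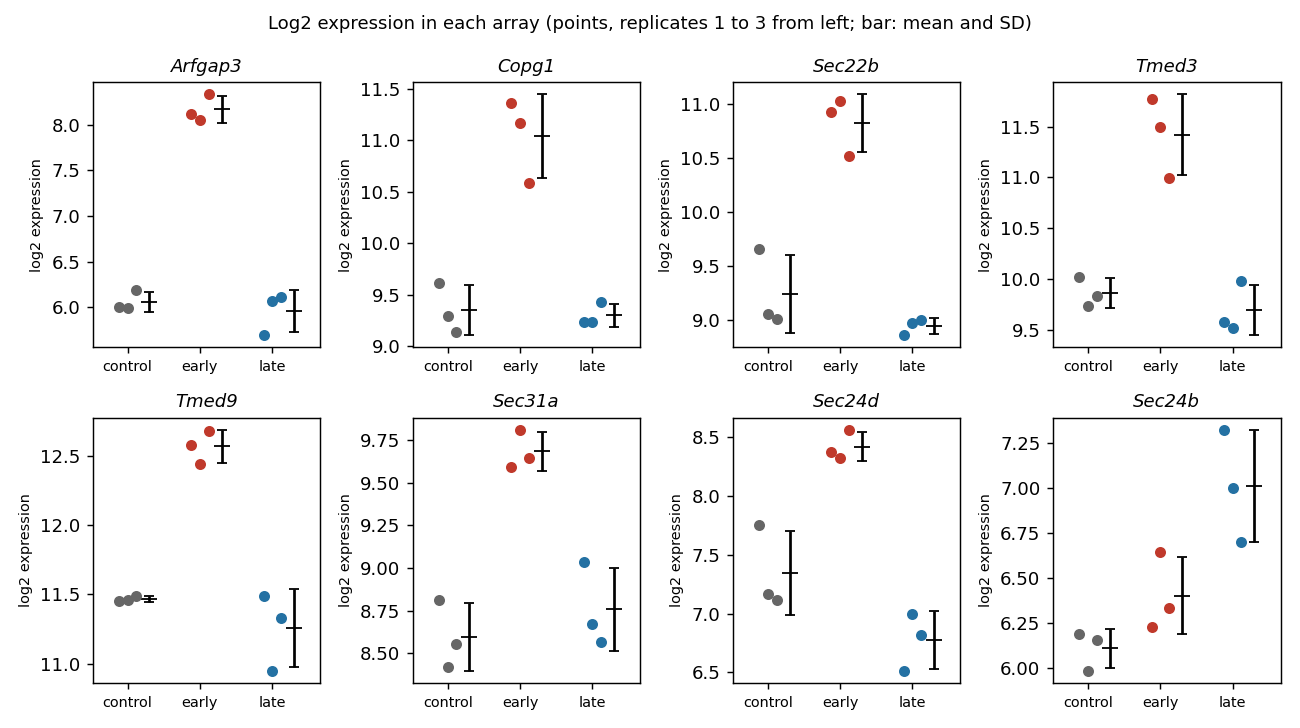
Log2 expression (vertical axis, a separate scale in each panel) in each array for 8 ER-Golgi traffic genes; points are replicates 1 to 3 of control, early and late muscle, and bars give the mean and SD (n = 3). In 7 panels the early points lie above all control and late points, as for Arfgap3 (means 6.06, 8.17 and 5.96), while Sec24b is highest in the late arrays (means 6.11, 6.40 and 7.01).

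The 13 genes of the COPII coat and its exit sites all had positive differences in early against control: the median was 0.56 (1.47-fold), 3 rose (Sec31a, Sec13 and Sec24d), and 11 of 13 had early arrays above all controls. Sec13 and Sec31a form the outer cage of the coat. Sec31a read 8.81, 8.42 and 8.56 in controls, 9.59, 9.81 and 9.65 in early and 9.03, 8.67 and 8.56 in late arrays, so that the early group was separate from both others. The difference was 1.09 ± 0.17 against control (2.12-fold, adjusted p = 0.0240) and 0.93 against late (adjusted p = 0.0196). Sec13, which is also part of the nuclear pore, was at 11.22, 10.89 and 10.99, then 12.19, 12.38 and 11.77, then 11.04, 10.87 and 11.07. Control and late values of Sec13 coincided, and early exceeded them by 1.08 ± 0.18 (2.12-fold, adjusted p = 0.0314) and 1.12 (adjusted p = 0.0134).

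Sec24 proteins are the cargo-binding subunits of the coat, and the 4 genes did not follow a single pattern. Sec24d, with its UPR element just upstream of the start, read 7.75, 7.17 and 7.11 in controls, 8.38, 8.32 and 8.56 in early and 6.51, 7.0005 and 6.82 in late arrays. Early arrays were the highest and late arrays the lowest, with no overlap: early minus control was 1.08 ± 0.21 (2.11-fold, adjusted p = 0.0478), late minus control -0.57 ± 0.21 (adjusted p = 0.229) and early minus late 1.64 (3.13-fold, adjusted p = 0.00578). Sec24b was ordered the other way, with 6.19, 5.98 and 6.16 in controls, 6.23, 6.64 and 6.33 in early and 7.32, 7.001 and 6.70 in late arrays. Here the late arrays were the highest: late minus control was 0.90 ± 0.19 (1.87-fold, adjusted p = 0.0942), early minus control 0.29 (adjusted p = 0.417) and early minus late -0.61 (adjusted p = 0.0664). None of the 3 Sec24b contrasts passed the threshold, although its late difference had the smallest p of the 44 members in that comparison. Sec24c read 9.70, 9.71 and 9.76, then 9.98, 10.26 and 10.20, then 10.13, 9.88 and 9.995, above control in both induced groups by 0.43 and 0.28 without a call. Sec24a was spread widely within the early group, at 9.76, 10.64 and 11.11, and differed from control by 0.35 in early and 0.58 in late muscle (adjusted p = 0.58 and 0.391).

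Sec23 stimulates GTP hydrolysis by Sar1, and the 2 Sec23 genes were not called. Sec23a was 0.50 above control in early and 0.31 in late muscle. For Sec23b the early arrays read 7.98, 8.27 and 9.49 beside controls of 7.63, 7.34 and 7.58, a difference of 1.06 ± 0.36 (2.09-fold, adjusted p = 0.191) with early replicate 3 far above the other early arrays. Sar1a, one of the genes for the GTPase that starts coat assembly, read 10.60, 10.35 and 10.48 in controls, 10.83, 11.22 and 11.06 in early and 11.24, 10.85 and 10.77 in late arrays. With this probe set both induced groups were above all controls for Sar1a, by 0.56 (adjusted p = 0.163) and 0.48 (adjusted p = 0.228), and they overlapped each other. A second passing Sar1a probe set gave 1.19 in early minus control and -0.05 in late minus control. Its early minus late difference was 1.24 (adjusted p = 0.0292 over probe sets). Sar1b, the paralogue of Sar1a, differed by 0.02 in early and 0.19 in late muscle.

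Preb, the exchange factor that loads Sar1, read 9.30, 8.98 and 8.81 in controls, 9.55, 9.61 and 9.70 in early and 8.87, 8.85 and 8.95 in late arrays. The early group was above both others, with 0.59 ± 0.15 over control (adjusted p = 0.119) and 0.73 over late (1.66-fold, adjusted p = 0.0251). Mia3, also known as TANGO1, loads large cargo such as collagen at exit sites; it read 9.97, 10.03 and 10.09, then 10.73, 10.91 and 10.50, then 10.59, 10.46 and 10.61. Early and late arrays of Mia3 overlapped above the controls, by 0.68 ± 0.14 (adjusted p = 0.0640) and 0.52 ± 0.14 (adjusted p = 0.138). The late value differed between probe sets. A second passing Mia3 probe set gave 0.42 in late minus control, with all late arrays above all controls. The remaining passing one, which was dimmer, gave -1.79. Averaged over all passing Mia3 probe sets, late minus control was -0.28. Sec16a was 0.54 higher in early and 0.26 higher in late muscle, with both groups above all controls. In late against control 8 of the 13 COPII genes had arrays above all controls (61.5%, where all genes gave 16%), 1 (Sec24d) had arrays below them, and none was called.

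**Figure D4:**
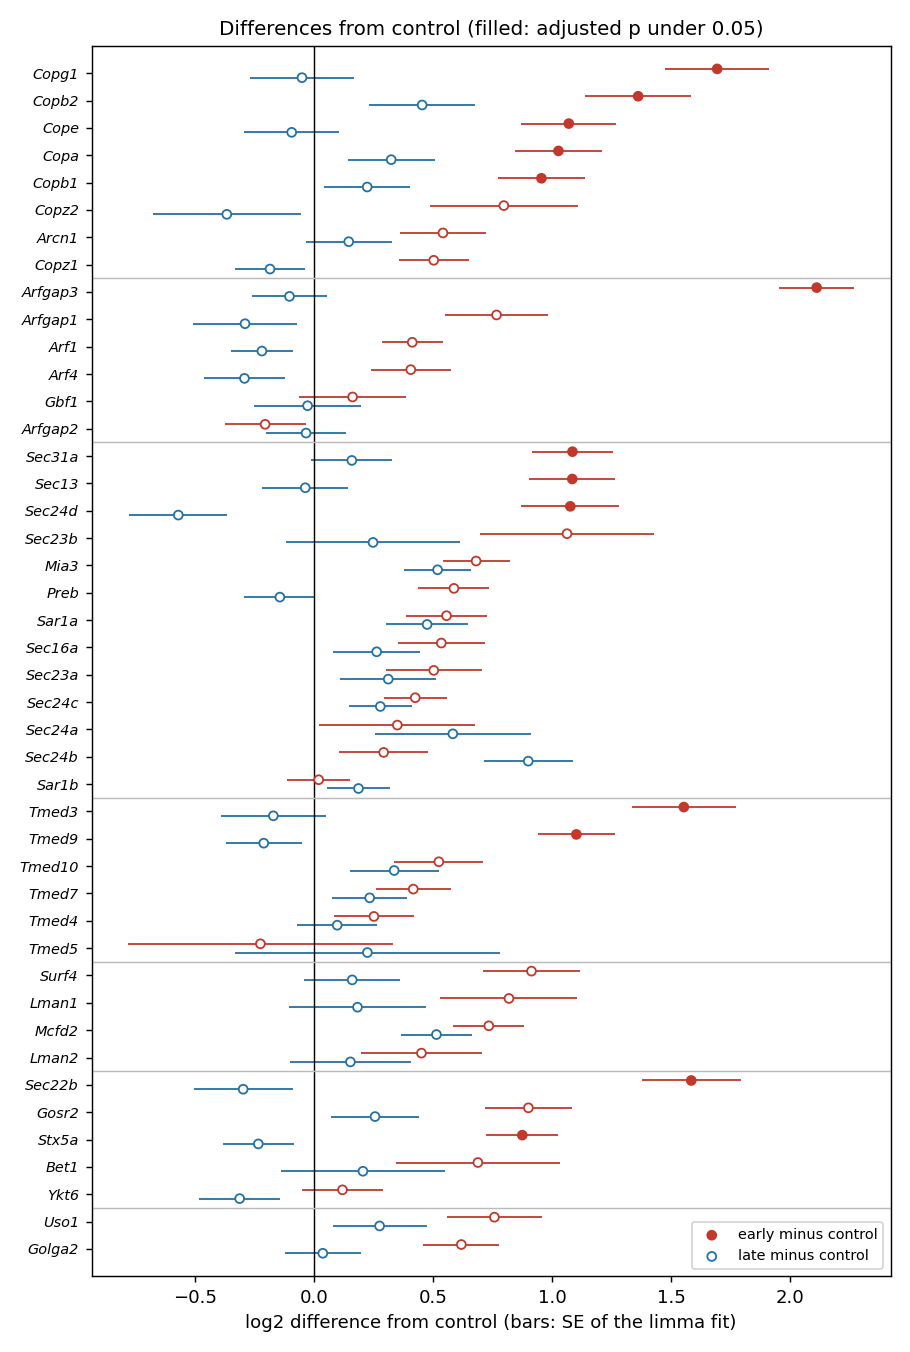
Log2 difference from control (horizontal axis) of each ER-Golgi traffic gene (vertical axis, grouped by role) in early (red) and late (blue) muscle; points are differences of means over 3 arrays per group, bars the SE of the limma fit, and filled points have an adjusted p under 0.05. Filled points are the 13 called in early minus control, from Stx5a at 0.87 to Arfgap3 at 2.11, and no late point is filled.

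p24 proteins are small membrane proteins that cycle between ER and Golgi and help load GPI-anchored proteins. Tmed3 and Tmed9 rose in early muscle, and the other 4 tested were not called. Tmed3 read 10.03, 9.74 and 9.84 in controls, 11.77, 11.50 and 10.99 in early and 9.58, 9.53 and 9.98 in late arrays. All early arrays were above the rest, with a difference of 1.55 ± 0.22 from control (2.93-fold, adjusted p = 0.0157) and 1.72 from late (3.30-fold, adjusted p = 0.00608). Tmed9 was almost constant among controls, at 11.45, 11.46 and 11.49, and read 12.58, 12.44 and 12.68 in early and 11.49, 10.95 and 11.33 in late arrays. The early group was separate from both others, by 1.10 ± 0.16 (2.15-fold, adjusted p = 0.0169) and 1.31 (adjusted p = 0.00578). Tmed10, Tmed7 and Tmed4 were 0.52, 0.42 and 0.25 higher than control in early muscle, with adjusted p values of 0.202, 0.220 and 0.434. Tmed5 had no group pattern: replicate 1 was the lowest in control (9.45), early (9.31) and late (9.63) muscle, and the other 6 arrays lay between 10.57 and 11.16.

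Tmed2 was not tested. Its only probe set that names no other gene was dim, near 2.4 in every array. The 6 bright probe sets that also name Gm10698, a predicted gene, were higher in every early array than in every control array, by 0.42 to 0.96 in the mean, and late minus control was between -0.16 and -0.03. All 6 carry the same pair of gene names and are not replicates of each other, and the share of each gene in the signal was not resolved.

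Cargo receptors hold soluble cargo to the coats. All 4 had positive early differences (median 0.78), none was called against control and 1, Surf4, was called against late. Surf4, a receptor for many secreted proteins, read 10.03, 9.86 and 10.05 in controls, 10.82, 11.20 and 10.66 in early and 10.10, 9.84 and 10.48 in late arrays. Its early arrays exceeded all others, with 0.91 ± 0.20 over control (1.88-fold, adjusted p = 0.0820) and 0.75 over late (adjusted p = 0.0467, and 0.0668 with the block). Mcfd2, the partner of the lectin Lman1 in exporting clotting factors, read 9.61, 9.21 and 9.23, then 10.14, 10.16 and 9.96, then 9.79, 9.93 and 9.88. Both induced groups lay above all controls for Mcfd2, by 0.73 ± 0.15 in early (1.66-fold, adjusted p = 0.0631) and 0.51 ± 0.15 in late muscle (1.43-fold, adjusted p = 0.155). Lman1 itself had early values of 9.85, 10.42 and 11.13, of which the first fell within the control range, and its difference of 0.82 was not called (adjusted p = 0.197). A second Lman1 probe set separated early from control arrays, by 1.18 (adjusted p = 0.0230 over probe sets). Lman2, a lectin of the same family, was 0.45 higher in early and 0.15 higher in late muscle, with overlapping arrays.

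SNAREs carry out fusion. Sec22b, an ER-Golgi SNARE, read 9.65, 9.05 and 9.004 in controls, 10.92, 11.02 and 10.52 in early and 8.85, 8.97 and 8.997 in late arrays. With this probe set the early group was the highest and the late group the lowest, though late replicate 3 and control replicate 3 were nearly equal. The difference was 1.58 ± 0.21 in early against control (3.00-fold, adjusted p = 0.0132), -0.30 in late against control (adjusted p = 0.493) and 1.88 in early against late (3.68-fold, adjusted p = 0.00571). A second passing Sec22b probe set gave 1.04 in early minus control, without a call (adjusted p = 0.0896 over probe sets). Its late minus control difference was 0.06, with overlapping arrays, and early minus late was 0.97 (adjusted p = 0.0374 over probe sets). Stx5a, the syntaxin of the Golgi that pairs with Sec22b, Bet1 or Ykt6, was at 9.44, 9.47 and 9.35, then 10.07, 10.35 and 10.47, then 9.34, 9.01 and 9.21. With this probe set the 3 groups of Stx5a did not overlap, with early 0.87 ± 0.15 over control (1.83-fold, adjusted p = 0.0356) and 1.11 over late (adjusted p = 0.00788). The Stx5a probe set may match further transcripts by its design. The second, dimmer Stx5a probe set gave 1.27 in early minus control (adjusted p = 0.0637 over probe sets) and 0.77 in early minus late, without a call. Its late minus control difference was 0.50, with all late arrays above all controls.

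The other 3 SNAREs were not called. Gosr2 was 0.90 ± 0.18 above control in early muscle with no overlap (1.87-fold, adjusted p = 0.0635). Bet1 read 8.73, 9.01 and 10.25 in early arrays beside controls of 8.53 to 8.80, with early replicate 3 far above the other 2, and its difference of 0.69 was not called (adjusted p = 0.31); a second Bet1 probe set gave 0.93 (adjusted p = 0.0458 over probe sets). Ykt6, a lipid-anchored SNARE that acts in several steps, differed by 0.12 in early and -0.31 in late muscle.

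The 2 tethers capture COPII and COPI vesicles at the Golgi. Golga2, also called GM130, read 9.37, 9.36 and 9.25 in controls, 9.81, 10.16 and 9.87 in early and 9.59, 9.15 and 9.36 in late arrays. Early arrays of Golga2 were all higher than the others, by 0.62 ± 0.16 over control (adjusted p = 0.123) and 0.58 over late (adjusted p = 0.0491, and 0.0661 with the block). Uso1, or p115, which binds Golga2, had early values of 11.28, 11.62 and 12.08 against controls of 10.84 to 11.02, a difference of 0.76 that was not called (adjusted p = 0.129).

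The early arrays did not rank alike for all members. Early replicate 1 was the lowest of the 3 for 26 members, replicate 2 for 3 and replicate 3 for 15. Early replicate 3 was below the mean of the other 2 for Copz2 (by -1.13 on the log2 scale), Copb2 (-0.78), Copg1 (-0.68) and Tmed3 (-0.64), and above it for Bet1 (1.38), Sec23b (1.36), Lman1 (0.99) and Sec24a (0.91). Of the COPI genes, Arcn1 (0.50) and Copb1 (0.11) were above that mean in early replicate 3 and the other 6 were below it. The median distance of slow fibre markers from the control mean was 3.13, -0.71 and -3.40 in early replicates 1, 2 and 3, and that of 12 macrophage markers was 0.98, 0.43 and -0.28; their part in these values was not tested. The summed macrophage level was 12.88 to 13.29 in control, 12.72 to 14.13 in early and 12.62 to 13.09 in late arrays, with 1 of 12 markers called in a comparison. Of the 11 B and plasma cell markers, whose cells are rich in this machinery, 2 were tested (Ighm and Sdc1), their summed level was not higher in early arrays (7.50 to 10.98) than in controls (10.61 to 11.20), and the other 9 did not pass the filter on low values. Of the 7 T cell markers, 2 were tested, and their summed level was 9.58 to 9.82 in control, 8.96 to 9.27 in early and 6.84 to 9.14 in late arrays. Schwann cell markers (3 of 6 tested, 1 called) and adipocyte markers (3 of 6 tested, none called) had lower summed levels in early arrays than in all controls, 11.33 to 11.68 against 12.14 to 12.53 and 14.12 to 14.37 against 14.54 to 15.13. Fibroblast and endothelial summed levels overlapped between early and control arrays, and the part of any of these cells in the ER-Golgi values was not tested.

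Other probe sets of the members gave the same direction in early muscle. Among 25 members with a further passing probe set, 35 of 37 such probe sets had the sign of the one used in early against control, including all 6 of called genes. The figure was 32 of 37 in early against late, including all 14 of called genes, and 20 of 37 in late against control.

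A wider list, chosen by function and also with earlier results of these data known, held 80 further tested ER-Golgi genes. In early against control 6 of the 80 rose (7.5%, where 0.928% of all genes were called higher) and none fell. The median was 0.32, beside 0.68 for the 44 members and -0.03 for all genes. Blzf1 (0.97, adjusted p = 0.0157), Gorasp2 (1.28, adjusted p = 0.0222) and Golga3 (1.10, adjusted p = 0.0324) belong to the Golgi matrix that holds the stacks together. Bet1l (1.24, adjusted p = 0.0356) is a Golgi SNARE, Scfd1 (1.07, adjusted p = 0.0394) the Sec1-like partner of Stx5a, and Sec23ip (1.09, adjusted p = 0.0432) a Sec23-binding exit site protein. The KDEL receptors, which return ER chaperones through COPI vesicles, were not called against control, with 0.43 for Kdelr1, 0.75 for Kdelr2 and 0.18 for Kdelr3. All 3 were higher in early than in late muscle, by 0.60, 1.12 and 1.08 (adjusted p = 0.0492, 0.0205 and 0.0313), where Kdelr3 was -0.91 in late against control (adjusted p = 0.136).

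By role, the wider list gave 3 of 17 called in early against control for the COG complex and Golgi matrix, 2 of 14 for further SNAREs and their regulators, 1 of 8 for coat and exit site genes, and 0 of 16 further cargo receptors, 0 of 7 ARF family genes and 0 of 18 Rab and TRAPP genes. The share of all genes called higher was 0.928%. In late against control none of the 80 was called; the smallest p values belonged to Nbas (0.65, adjusted p = 0.0914), Golga3 (0.81, adjusted p = 0.106), Cog6 (0.84, adjusted p = 0.126) and Arfgef1 (0.59, adjusted p = 0.126). In early against late 19 were higher (23.8%, beside 5.31% of all genes) and 1 was lower (beside 6.23% of all genes). With the replicate number as a block 15 were higher, with Arf6, Bcap31, Yif1a, Scfd1 and Rab1a no longer called (adjusted p from 0.0501 to 0.0586) and Trappc6a called (1.36, adjusted p = 0.0453). Those higher without the block were led by Bet1l (1.51), Stx18 (0.93), Bnip1 (1.17), Gorasp2 (1.20), Yif1b (1.18) and Yipf5 (1.09), with Gorasp1 (1.22), Trappc4 (0.70), Ergic3 (0.89), Arf5 (1.35), Yif1a (1.30), Rab1a (0.49), Arf6 (1.14), Bcap31 (0.54), Scfd1 (0.74) and Sec23ip (0.76) besides the KDEL receptors. The lower gene was Arfgef1 (-0.63, adjusted p = 0.0352), an exchange factor for ARFs at the trans-Golgi.

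Genes of traffic beyond the Golgi were counted in the same way. Of 59 tested genes of clathrin adaptors, retromer, exocyst, endosomal SNAREs and Rabs, 0 were called by limma in early against control, where 0.928% of all genes were called higher; 8 of the 59 were higher and 1 lower at an unadjusted p under 0.05, beside 8.64% of all genes higher, and the median was 0.09. The smallest p values were those of Exoc6 (-0.83, adjusted p = 0.130), Gga2 (1.07, adjusted p = 0.184), Vamp2 (1.10, adjusted p = 0.194) and Gga1 (0.44, adjusted p = 0.195). In late against control 0 were called (4 higher and 1 lower at an unadjusted p under 0.05, beside 8.82% and 8.44% of all genes), with Exoc8 (0.47, adjusted p = 0.171) and Ap2s1 (-0.75, adjusted p = 0.210) first, then Ap3m1 (0.63) and Snx5 (0.44). In early against late Ap2s1 (1.17), Gga1 (0.58), Vamp2 (1.46), Gga2 (1.35) and Ap1m1 (0.65) were higher, 5 of 59 or 8.47% beside 5.31% of all genes, and the exocyst genes Exoc6 (-0.997) and Exoc8 (-0.66) were lower, beside 6.23%.

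ER stress genes were read in the same arrays for reference. Of 16 tested, 10 rose in early against control (62.5%, where 0.928% of all genes were called higher). Among them were Hspa5, the main ER chaperone (2.32 ± 0.29, adjusted p = 0.00913), and Dnajb9, its co-chaperone (1.97 ± 0.31, adjusted p = 0.0251). Dnajc3 (1.12, adjusted p = 0.215) and Xbp1 (1.28, adjusted p = 0.0896), the gene of a transcription factor that acts on secretory genes, were higher without a call; the array does not read the splicing of Xbp1. In late against control 0 of the 16 were called by limma (4 higher at an unadjusted p under 0.05, beside 8.82% of all genes), with 0.67 for Hspa5 and 1.01 for Dnajb9.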

How the data were processed

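RNA of quadriceps femoris from 9 mice was read on Affymetrix arrays after priming with oligo(dT), per the labels' protocols. The submitters' processing notes name GCRMA as the source of the deposited log2 values; its version is not given in the sources used here. GCRMA corrects background by probe base composition and brings the arrays to one distribution, which hides any change shared by every gene and gives dim probe sets nearly equal values.

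Of 45101 probe sets, 34958 named 1 gene, 932 several and 9211 none; the last 2 kinds and 64 control probe sets were left out. No symbol needed an update (0 changed) against RefSeq GRCm38.p6. Probe sets needed a log2 value over 5 in 3 or more arrays (16048 did), and a gene was represented by its brightest one, by the mean over 9 arrays (9697 genes, 3988 with several). One limma 3.58.1 model of 3 group means (lmFit and eBayes, R 4.3.3; 6 residual and 2.84 prior degrees of freedom, median residual SD 0.258) was fitted to all 9 arrays, with Benjamini-Hochberg adjustment over all genes. Probe-set values were adjusted over the 16048 probe sets. With 3 arrays in each of 2 groups, an exact permutation test has a smallest p of 0.1, so none was run. Precision is limited by 3 arrays per group, and nothing says that samples were independent beyond their labels, so p values reflect only the spread among them.

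The fit was run on simulated data for early against control with 200 of 9697 genes changed: 51.6% were recovered at a log2 change of 1 and 87.3% at 2, and 5.05% of calls were false. These shares describe the simulated data only. They do not give the error rate of the calls on the real arrays, which depended on single arrays. Deviations of same-numbered early and late arrays from their group means correlated at 0.168, 0.201 and 0.16 across genes. The labels give no pairing, so the main fit had no block, and the replicate number entered as a block in an alternative fit only. If the numbers do pair these 2 groups, the main early against late p values leave that pairing out. For early and control arrays the correlations were 0.35, 0.11 and -0.04, and for late and control 0.08, -0.16 and -0.11.

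Genes named with full values were all members called in a comparison, up to 6 with the smallest p in each, and the member with the smallest p in each role; from the other lists, all called genes and up to 4 with the smallest p. The members and lists were chosen with earlier results of these data known. Promoter letters came from RefSeq; the stretches printed were chosen after the matches were seen. Alternatives were other filters, probe set rules, centring, fits and each array left out.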

Additional observations from a re-analysis of the deposited data

Results flagged for a closer look

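Early and late muscle differed from the same controls by different amounts for 21 of the 44 genes. The calls are those of the early against late contrast of the limma fit, Benjamini-Hochberg adjusted over 9697 genes. Both groups share their controls, and age and the mean H2-K1 level differ between them. Over all genes tested, 5.31% were called higher in early than in late muscle and 6.23% lower. The values that follow are early minus late differences of the 21 genes on the log2 scale. In the COPI coat they were 0.70 for Copa, 0.73 for Copb1, 0.91 for Copb2, 1.74 for Copg1, 1.16 for Cope, 0.69 for Copz1 and 1.16 for Copz2. Among ARF genes they were 0.63 for Arf1, 0.70 for Arf4, 1.06 for Arfgap1 and 2.21 for Arfgap3. COPII genes gave 1.12 for Sec13, 1.64 for Sec24d, 0.93 for Sec31a and 0.73 for Preb. The p24 genes gave 1.72 for Tmed3 and 1.31 for Tmed9. The remaining genes were Surf4 at 0.75, Sec22b at 1.88, Stx5a at 1.11 and Golga2 at 0.58. Adjusted p ran from 0.00116 (Arfgap3) to 0.0491 (Golga2), and for all 21 the 3 early arrays lay above the 3 late arrays.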

How the results depend on the processing

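The count of ER-Golgi genes called in early against control, 13, became 7 with no filter on low values, 6 with only the 2 groups compared, 37 with array weights (36 higher and Arfgap2 lower; limma warned that the weights did not converge) and 5 with the replicate number as a block; the other planned settings with all arrays gave 11 to 16. Leaving out 1 array gave 1 to 21. It was 21 without early replicate 3, and 4, 1 and 1 without control replicates 1, 2 and 3, 6 and 1 without early replicates 1 and 2, and 10, 6 and 6 without late replicates 1, 2 and 3. Early against late, 21, became 4 with only the 2 groups compared and 16 with the replicate block, 14 with no filter, and 7 to 21 with 1 array left out. Late against control, 0, became 3 with array weights (Sec24b, Mia3 and Mcfd2) and stayed at 0 with any 1 array left out. Of the single-gene values 583 kept direction and side of the threshold, 207 lost the call, 7 gained it and 1 reversed: Mia3 in late against control was -0.28 with all its passing probe sets averaged, where a dimmer probe set was lower in late arrays. In early against late the block changed the calls of the 5 ER-Golgi genes and 6 genes of the wider list given with the results. Over all genes, the 115 calls in early against control became between 6 and 1756 with 1 array left out, 56 with no filter, 61 with 2 groups, 62 with the block and 3335 with array weights. In the same order the 1119 of early against late became between 143 and 2959, 584, 38, 1114 and 3534, and the 20 of late against control became between 5 and 59, 20, 12, 5 and 1037, and 12 without probe sets that may match several transcripts. The cause of these changes was not tested. In the fit with 2 groups fewer samples enter.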

Other observations

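Further passing probe sets of the members did not all follow those used: of 37, 19 gave a lower late minus control and a higher early minus late difference than the probe set used, and 11 the reverse. Of the first kind, 6 dimmer ones were picked out after their values were seen. Late minus control was -1.05 for Copa, -1.12 for Lman1, -1.79 for Mia3, -1.31 for Gbf1, -0.66 for Gosr2 and -1.04 for Ykt6. The early minus late differences of the same probe sets were 2.26, 2.55, 2.73, 2.11, 2.30 and 1.88. Late minus control was higher than with the probe set used for 16 of the 37, among them 0.64 and 0.61 for Arcn1 (used 0.15), 0.66 for Sec16a (used 0.26), 0.50 for Stx5a (used -0.23) and 1.14 for Sec24b (used 0.90).

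Tmed5, a p24 gene, was low in replicate 1 of all 3 groups, by -1.39 on the log2 scale against replicates 2 and 3; 12 of 9697 genes (0.124%), Tmed5 counted, were as low or lower by this measure. A second Tmed5 probe set was at 10.31, 9.67 and 9.65 in replicate 1 of control, early and late muscle and between 10.43 and 10.87 in the other arrays. The other passing Tmed5 probe set had replicate 1 as the lowest in early (7.52) and late (6.98) muscle, by little in early, and as the highest in control (7.55). The labels do not say what the samples with the same number share.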
